A study of Mus musculus with 4 samples.

Results

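The synaptotagmin family was examined in sorted cells of PDGF-B-driven mouse gliomas, in late-onset high-grade tumours against early-onset low-grade tumours. The 10 genes described are Syt1, Syt2, Syt3, Syt4, Syt5, Syt6, Syt7, Syt9, Syt11 and Syt17, out of 19937 genes measured on the array. Each was read by the probe set annotated to that gene symbol alone, and each had 1 such probe set, so no choice between probe sets arose. The genes were selected on the late-onset minus early-onset log2 differences of these same arrays. Their values in that comparison are therefore given as a description, with no test, and calls among them are only counted beside the share called among all genes.

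The late-onset high-grade group held 2 samples, tumour 1 and tumour 2, each of cells from 1 glioma. The early-onset low-grade group held 2 samples, pool 1 and pool 2, each of cells pooled from 2 gliomas, so that differences between the early-onset animals were averaged. All 4 came from C57/Bl6 mice carrying the same PDGF-B/EGFP overexpression, delivered by a retrovirus injected at embryonic day 14, and in all 4 the EGFP-positive cells were sorted from the dissociated glioma. Ages at collection and the promoter of the virus are not given in the sources used here, and normal brain was not analysed here.

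Synaptotagmins are membrane proteins with a pair of cytoplasmic C2 domains, C2A and C2B, which in many members bind calcium and phospholipids. On synaptic vesicles and secretory granules they couple calcium entry to membrane fusion by acting on the SNARE proteins syntaxin 1, SNAP25 and synaptobrevin. Several members do not bind calcium and act in vesicle traffic or endocytosis instead. In brain most are genes of neurons and neuroendocrine cells, while some are also expressed in glia.

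Values are log2 probe set summaries, so a difference of 1 is a doubling. Over all probe sets the tumours correlated at r = 0.988 and the pools at r = 0.992, against 0.972 to 0.974 between the groups. The sorted cells were checked with genes of oligodendrocyte progenitors and of microglia. The lineage factor gene Olig2 stood at 11.93 and 11.89 in the tumours and 12.09 and 12.12 in the pools (adjusted p = 0.256), and Sox10 stood at 11.52 and 11.49 in the tumours and 11.51 and 11.50 in the pools (adjusted p = 0.997). Pdgfra, the PDGF receptor gene of these cells, stood at 13.24 and 13.20 in the tumours and 13.63 and 13.71 in the pools (adjusted p = 0.041). The Pdgfra call was lost when any 1 sample was left out (adjusted p 0.0795 to 0.229), after quantile normalization (0.0542), with array medians subtracted (0.0588) and with the replicate number as a block (0.0863). The microglia genes Csf1r, a growth factor receptor gene, and C1qa, a complement gene, were lower in the tumours than in the pools. Csf1r stood at 7.0 and 7.41 in the tumours and 11.37 and 11.25 in the pools, and C1qa at 7.67 and 8.62 in the tumours and 12.19 and 12.11 in the pools. With 2 samples per group an exact permutation test of a single gene cannot go below p = 0.333, so tests rest on limma's fit across all genes.

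Upstream sequence is shown for Syt1, Syt9 and Syt11, the 3 genes with a window that stood lower in late-onset cells by the largest amounts. The windows are the 250 bases before a transcription start in the RefSeq table of GRCm38.p6. Windows were used for 6 of the 10 genes (Syt1, Syt2, Syt3, Syt6, Syt9 and Syt11), and Syt4, Syt5, Syt7 and Syt17 are named only. Any window of the 10 genes on 1 chromosome was left out by a filter, which was not applied to the windows of all genes. The lack of a window here therefore does not show that the table lacked the gene. Each is written 5′ to 3′ on the strand of its gene, and capitals mark letters of a GC box (GGGCGG), read on both strands.
Syt1, chr10:109010976-109011225, minus strand: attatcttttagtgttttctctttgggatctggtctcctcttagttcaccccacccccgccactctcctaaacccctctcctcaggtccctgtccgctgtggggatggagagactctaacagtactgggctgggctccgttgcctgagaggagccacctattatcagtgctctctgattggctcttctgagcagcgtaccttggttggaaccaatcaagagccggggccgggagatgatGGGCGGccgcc
Syt9, chr7:107370540-107370789, plus strand: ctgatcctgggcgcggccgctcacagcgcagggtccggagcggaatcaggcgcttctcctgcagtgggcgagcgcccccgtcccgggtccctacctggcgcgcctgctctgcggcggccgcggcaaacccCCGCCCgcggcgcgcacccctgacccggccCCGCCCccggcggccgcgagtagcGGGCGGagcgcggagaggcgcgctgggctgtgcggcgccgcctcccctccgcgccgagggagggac
Syt11, chr3:88772600-88772849, minus strand: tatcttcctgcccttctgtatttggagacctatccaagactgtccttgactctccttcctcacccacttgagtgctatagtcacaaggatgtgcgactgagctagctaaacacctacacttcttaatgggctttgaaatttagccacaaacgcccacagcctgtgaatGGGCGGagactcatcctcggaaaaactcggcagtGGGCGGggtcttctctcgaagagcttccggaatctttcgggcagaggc
All 3 windows shown hold the GC box, a motif found in many promoters without a TATA box, on one or the other strand. The window at the other start of Syt1, not shown, held 0. By window, 8 of the 10 windows of these genes held it, against 32.7% of 32817 windows of all genes. By gene 5 of 6 had it in at least 1 window, against 35.4% of 27025 genes. The 10 windows held 42.8 to 80.4% G and C, most of them above the median of 52.4% over all windows. The GC box is itself made of G and C, and windows of like G and C content were not compared. Windows of 1 gene can overlap. The E-box CAGCTG was in 4 of the 10 windows, of Syt1 (at its other start) and Syt6, against 13% of all windows. The core TGACG of the cAMP response element was in 1, of Syt2 (17.7% of all windows), and GGACAGC, a part of the RE1 element, in 3, all of Syt6 (5.28%). Some windows of Syt6 overlap and share these matches. By gene, the E-box was in 2 of 6 against 14.7% of all genes, and GGACAGC in 1 of 6 against 6.14%. The TATA box TATAAA was in 0 of the 10 windows, against 12.4% of all windows. Of these motifs the 3 windows shown hold the GC box alone, and a match is a string of letters, not a measured site.

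Among the 10 synaptotagmins, Syt4 stood 6.73-fold higher in late-onset cells and Syt1 2.20-fold lower, and the other 8 differed by less than 1.5-fold. By limma's fit over all genes, 1 rose (Syt4) and 2 fell (Syt1 and Syt11). Of all 19937 genes 14.7% were called, 6.59% as higher and 8.12% as lower. The samples of the groups did not overlap for 7 of the 10, with Syt4 higher and Syt1, Syt3, Syt5, Syt9, Syt11 and Syt17 lower, while 58.9% of all genes did not overlap, 28.5% higher and 30.4% lower. Because the genes were chosen with this comparison in view, nothing is read from these counts. The median log2 difference was -0.31 over the 10 genes and -0.01 over all genes.

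**Figure D1:**
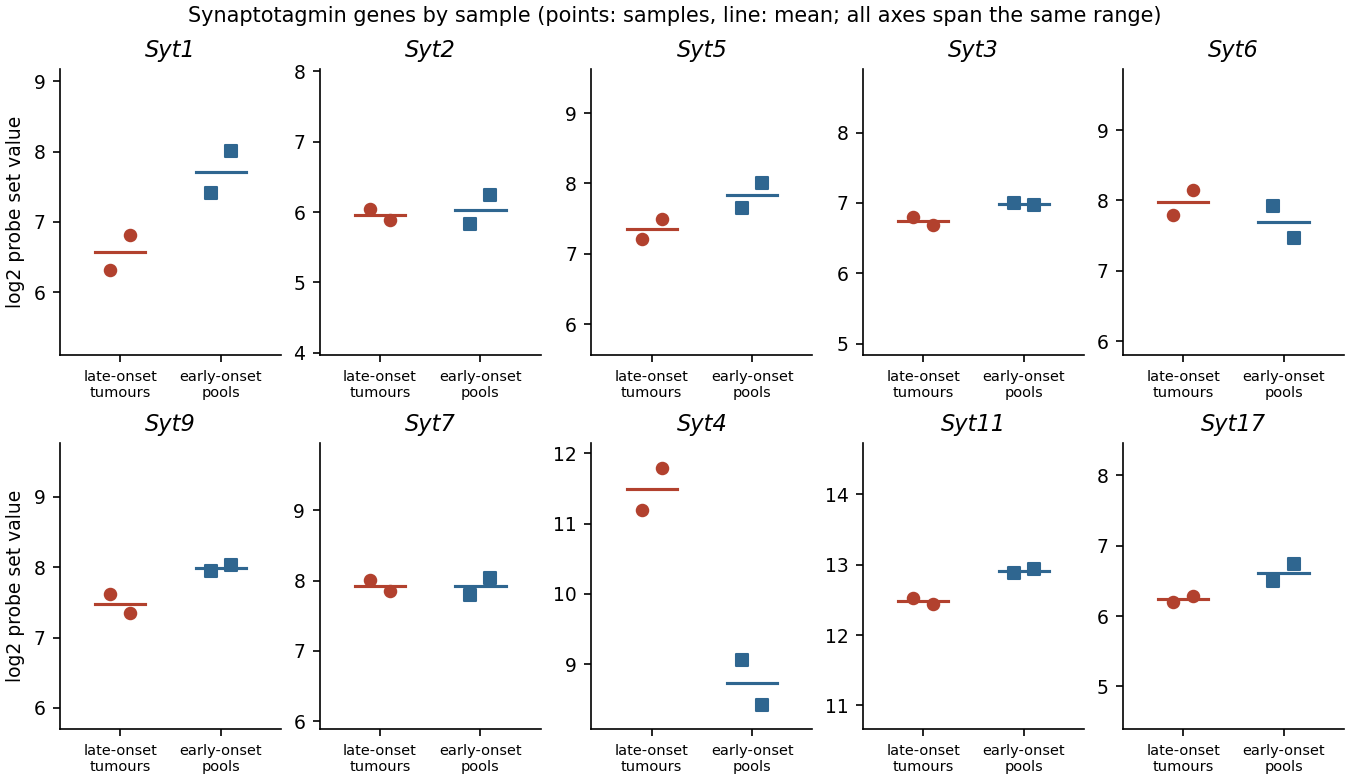
Log2 probe set value of each synaptotagmin gene in the late-onset tumours (circles, left) and early-onset pools (squares, right), with a line at each group's mean and n = 2 per group. Every vertical axis spans the same range, so the distance between the groups can be compared across genes. Syt4 shows the widest gap, between 11.49 and 8.74.

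Syt4 encodes a synaptotagmin of dense-core vesicles and the Golgi, where its C2A domain carries a serine in place of a calcium-binding aspartate. Its value was 11.19 in tumour 1 and 11.79 in tumour 2, against 9.06 in pool 1 and 8.42 in pool 2. Both tumours lay above both pools by more than 2 log2 units. The means were 11.49 ± 0.42 in late-onset cells and 8.74 ± 0.45 in early-onset cells (SD, n = 2 each), a log2 difference of 2.75 (SE 0.28). A larger absolute difference was seen in 0.607% of all genes. With any 1 sample left out the difference lay between 2.43 and 3.07.

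Syt11 is the closest relative of Syt4, carries the same change in its C2A domain, and is known to restrain endocytosis. It read 12.53 in tumour 1 and 12.44 in tumour 2, against 12.89 in pool 1 and 12.94 in pool 2. The replicates lay close together, within 0.09 in the tumours and 0.05 in the pools, and the groups did not overlap. The log2 difference was -0.43 (SE 0.098), opposite in sign to that of Syt4, so that the differences of the pair lay 3.18 log2 units apart. It stayed between -0.58 and -0.37 over 17 other settings. The call was lost when any 1 sample was left out (-0.45 without pool 1, -0.40 without pool 2, -0.47 without tumour 1 and -0.39 without tumour 2) with array medians subtracted (-0.37) and with the replicate number as a block.

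Syt1 and Syt2 encode the calcium sensors of fast transmitter release, Syt1 mainly in forebrain neurons and Syt2 mainly in the hindbrain, the spinal cord and motor nerve endings. Syt1 read 6.32 in tumour 1 and 6.82 in tumour 2, against 7.41 in pool 1 and 8.01 in pool 2. The pools lay above the tumours without overlap, though the samples of each group were as far apart as 0.50 and 0.60. The mean was 6.57 ± 0.35 in late-onset cells and 7.71 ± 0.43 in early-onset cells (SD, n = 2 each), a log2 difference of -1.14 (SE 0.26). Syt1 was called in the fit with all samples, but not without pool 1 (-1.44), pool 2 (-0.83) or tumour 1 (-0.89), nor after quantile normalization (-1.09) or median subtraction (-1.08).

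Syt2 read 6.04 and 5.89 in the tumours and 5.82 and 6.24 in the pools. The pools enclosed the tumours, and the difference of -0.07 (SE 0.17) was smaller than the gap of 0.41 between the pools. It turned positive without pool 2 (0.14) or without tumour 2 (0.01). The differences of these closely related genes were 1.07 log2 units apart.

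Syt5 and Syt9 are both found on secretory vesicles and granules, and their names have been exchanged in parts of the literature, so the symbols here are those of the array annotation. Syt5 read 7.21 and 7.49 in the tumours and 7.65 and 8.01 in the pools. Syt9 read 7.61 and 7.35 in the tumours and 7.94 and 8.03 in the pools. For both genes each tumour lay below each pool, but for Syt5 the distance between tumour 2 and pool 1 was smaller than the distance between the replicates of either group. The log2 differences were -0.48 (SE 0.17) for Syt5 and -0.51 (SE 0.13) for Syt9, and neither was called. Syt9 was called without tumour 1 (-0.64) and among genes above the median level (-0.51).

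Syt3 and Syt6 share cysteines near the N terminus through which they form dimers. Syt3 takes part in the removal of AMPA receptors from synapses in rodents, and Syt6 acts in acrosomal exocytosis of sperm. Syt3 read 6.81 and 6.69 in the tumours and 7.0 and 6.98 in the pools, and Syt6 read 7.80 and 8.15 in the tumours and 7.92 and 7.46 in the pools. The groups did not overlap for Syt3 and did for Syt6. The log2 differences were -0.24 (SE 0.10) for Syt3 and 0.28 (SE 0.20) for Syt6, and neither was called. The Syt6 difference was 0.05 without pool 2 and 0.52 without pool 1.

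Syt7 encodes a sensor of high calcium affinity that acts in delayed release, synaptic facilitation and lysosome exocytosis. It read 8.0 and 7.85 in the tumours and 7.79 and 8.04 in the pools, with the pools on either side of the tumours. The difference was 0.01 (SE 0.13), and its sign changed without pool 1 (-0.11) or tumour 1 (-0.07) and, by under 0.01, after cyclic loess.

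Syt17, also known as the B/K protein, lacks a transmembrane segment and is attached to Golgi membranes. It read 6.19 and 6.28 in the tumours and 6.49 and 6.74 in the pools. The groups did not overlap, and the difference of -0.38 (SE 0.12) was not called in the fit with all samples or in any other setting. In all, 6 of the 10 genes had a mean above the median level of all genes, which is 7.44, and Syt1, Syt2, Syt3 and Syt17 did not.

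**Figure D2:**
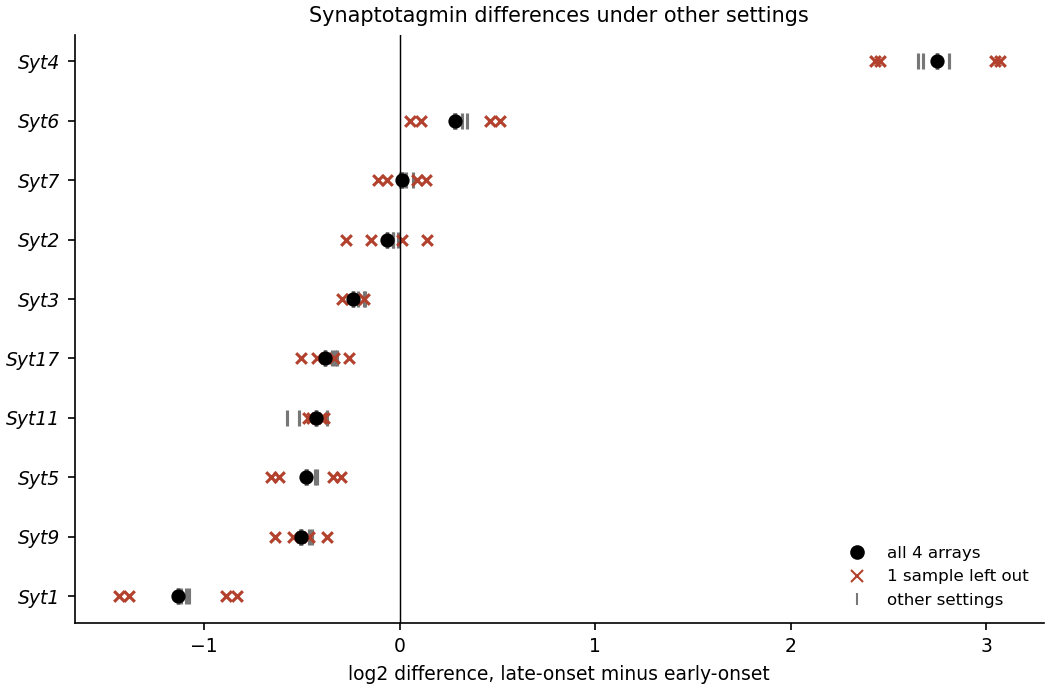
Log2 difference, late-onset minus early-onset, of each synaptotagmin gene with all 4 arrays (black dots), with 1 sample left out (red crosses) and under other scalings, filters, variance models and probe set rules (grey bars). Syt4 stays above 2.43 throughout, and the differences of Syt2 and Syt7 lie on both sides of 0.

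Within the groups, 5 of the 10 genes were higher in tumour 2 than in tumour 1, and 7 of the 10 were higher in pool 2 than in pool 1. Of all 19937 genes, 10066 were higher in tumour 2 and 10673 in pool 2. Syt4 and Syt6 were higher in tumour 2 than in tumour 1 (by 0.59 and 0.36) and lower in pool 2 than in pool 1 (by -0.64 and -0.46 on the log2 scale). Syt1 and Syt5 were higher in both tumour 2 (by 0.50 and 0.28) and pool 2 (by 0.60 and 0.36). For 7 of the 10 genes, all but Syt2, Syt6 and Syt7, the difference between the groups was larger than the gap within either group. The same share was not computed over all genes. Nothing is read from this count, since the genes were chosen on this comparison.

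The array also held 7 other Syt genes, and among these Syt12 and Syt16 fell in late-onset cells. Syt12, which encodes a synaptotagmin that does not bind calcium, read 6.91 and 7.04 in the tumours and 7.73 and 7.76 in the pools (log2 difference -0.77, SE 0.10, adjusted p = 0.0111). Syt16, whose product also lacks the calcium-binding residues, read 8.49 and 8.40 in the tumours and 9.11 and 9.43 in the pools (-0.82, SE 0.14, adjusted p = 0.0204). The call of Syt12 was lost without pool 1 (adjusted p = 0.0695) or pool 2 (0.0806), and that of Syt16 without pool 2 (0.099) or tumour 2 (0.0598) and with the replicate number as a block (0.0525). Syt8, Syt10, Syt13, Syt14 and Syt15 lay between -0.30 and -0.04 and were not called. All 7 differences were negative, with a median of -0.21, while 10303 of all 19937 genes had a negative difference and 8.12% of all genes were called as lower. Over the 17 Syt genes together, Syt4 was the only one called as higher in the fit with all samples, against 6.59% of all genes. Nothing is read from that count, since Syt4 was selected on this comparison.

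**Figure D3:**
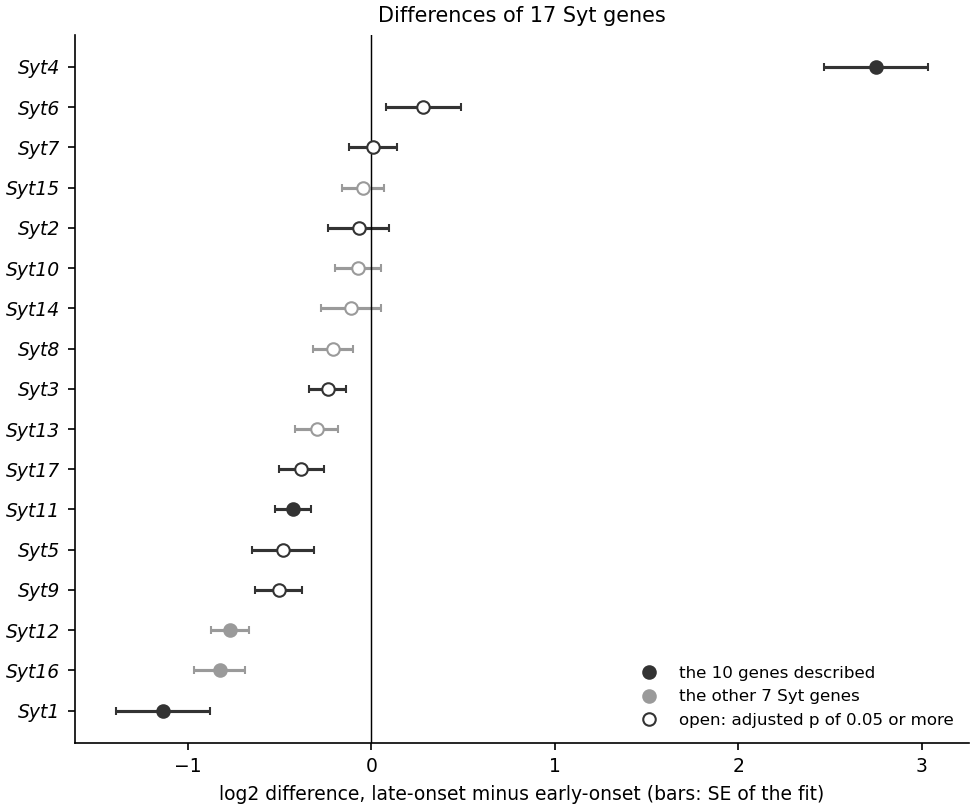
Log2 difference, late-onset minus early-onset, of the 17 Syt genes on the array, with bars for the standard error of limma's fit. Filled points have an adjusted p under 0.05, black points are the 10 genes described and grey points the other 7. Syt4 lies at 2.75, apart from the rest, which run from -1.14 to 0.28.

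The genes most like Syt4 and Syt1 over the 4 arrays were found by the Euclidean distance between log2 values after each gene's mean was removed, among genes above the median level. For Syt4, out of 9779 genes searched, these were Cdkn2a, which encodes the p16INK4a and p19ARF inhibitors (distance 0.46), Vit, which encodes the matrix protein vitrin (0.53), the galectin gene Lgals1 (0.55) and the tenascin C gene Tnc (0.57). Their log2 differences were 2.46, 2.45, 2.21 and 2.54, all called. The Tnc call was lost without pool 2 (1.92) or tumour 2 (2.02), with robust variances and with the replicate number as a block. Cdkn2a read 10.29 and 10.59 in the tumours and 8.09 and 7.86 in the pools, thus with tumour 2 and pool 1 as the higher samples of their groups, as for Syt4. Lgals1 and Tnc had the same order, and Vit had it in the pools but not in the tumours (10.56 and 10.55). For Syt1, out of 9780 genes, they were the G protein subunit gene Gng7 (0.11), the phosphodiesterase gene Pde2a (0.12), Mif4gd (0.21) and Rida (0.21). Their differences lay between -1.19 and -0.97. Pde2a and Rida were called with all samples, but not without pool 2 (-0.84 and -0.74) or tumour 1 (-1.0 and -0.78), nor Pde2a without tumour 2 (-1.39) or Rida without pool 1 (-1.20). Gng7 and Mif4gd were not called with all samples, and Mif4gd was called without pool 1 (-1.43). Each was higher in pool 2 than in pool 1 and higher in tumour 2 than in tumour 1, as Syt1 was. With 4 arrays many genes can share such a pattern. The genes were picked on these same values, so their like differences and replicate order are no separate result. These likenesses are a description.

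In 6 lists of genes that work with synaptotagmins in exocytosis, 85 genes were measured, of which 32 fell, 2 rose and 51 were not called, against 8.12% and 6.59% of all genes called as lower and higher. The median log2 difference was -0.27, against -0.01 for all genes. With either pool left out fewer of these genes were called, most of them still as lower. Fewer of all genes were called in these settings as well, so the loss of calls is not particular to the lists. The lists were written with earlier results of these data known. Fewer cells of a type and less RNA per cell cannot be told apart in such bulk samples.

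Of 17 synaptic SNARE and priming genes, 9 fell and none rose in the fit with all samples, at a median of -0.55. Fewer were called without pool 1 or pool 2, and without pool 1 the calls were not all falls. Rab3b read 10.26 and 10.10 in the tumours and 9.54 and 8.87 in the pools. Its difference of 0.98 (SE 0.23) was not called with all samples (adjusted p = 0.051). Rab3c, a small GTPase gene of synaptic vesicles, read 5.01 and 5.07 in the tumours and 7.91 and 7.89 in the pools (-2.86, SE 0.096, adjusted p = 0.0013). Cplx1, which encodes complexin 1, a clamp that works beside synaptotagmin on the SNARE complex, fell by 1.98 (adjusted p = 0.00452). Snap25, the SNARE gene to whose product synaptotagmin 1 binds, read 7.09 and 7.69 in the tumours and 9.09 and 9.38 in the pools (-1.84, SE 0.22, adjusted p = 0.00899), and its call was lost without pool 2 (0.0568). The priming factor gene Unc13c (-1.29) and the active zone gene Rims1 (-1.28) also fell. Unc13c has 7 probe sets, and its difference was -2.03 with their mean and -3.25 with the one of largest spread. Rims1 was not called without pool 2 (-0.85), tumour 1 (-1.35) or tumour 2 (-1.20), with array weights (adjusted p = 0.0506) or with the replicate number as a block (0.0747). Stx1a, the syntaxin 1A gene, read 7.69 and 7.65 in the tumours and 7.45 and 7.80 in the pools (0.05, adjusted p = 0.871).

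Of 13 exocytic SNARE genes expressed in most tissues, 3 fell and none rose, at a median of -0.10. They were Vamp8 (-1.67, adjusted p = 0.0286), a SNARE gene of endosomes and granules, Stxbp2 (-1.09, adjusted p = 0.00981), which encodes a partner of syntaxins in blood cells and epithelia, and Stx3 (-0.65, adjusted p = 0.0151). Calls were lost without pool 1 and without pool 2 for Vamp8 (adjusted p 0.134 and 0.117) and Stx3 (0.0908 and 0.103), and for Vamp8 also with the replicate number as a block (0.0597).

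Of 13 synaptic vesicle genes, 6 fell and 1 rose, at a median of -0.47. Sv2c, which encodes a vesicle glycoprotein that in rodents binds synaptotagmin 1, was the one that rose, with 10.55 and 11.11 in the tumours and 9.10 and 8.97 in the pools (1.80, SE 0.20, adjusted p = 0.00743). Its relative Sv2a fell by 0.69 (adjusted p = 0.0127), the synaptogyrin gene Syngr1 by 1.27 (adjusted p = 0.00608) and the synapsin genes Syn2 and Syn3 by 0.99 and 0.70 (adjusted p = 0.0065 and 0.0141). Without pool 1, calls were lost for Syn3 (adjusted p = 0.0632) and Sv2a (0.0848). Without pool 2 they were lost for Sv2c (0.0507), Syn2 (0.0508), Syn3 (0.102) and Sv2a (0.0781), which left 1 called gene of the list against 3 without pool 1.

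Dense-core vesicles carry peptides and are the vesicles on which Syt4 is found in neurons. Of 12 genes of these vesicles and of secretory granules, 7 fell and none rose in the fit with all samples, at a median of -0.60. By sign, 10 of the 12 differences were negative and 2 positive. Vgf read 7.71 and 9.86 in the tumours and 7.67 and 7.48 in the pools. Its difference of 1.21 (SE 0.67) was not called with all samples (adjusted p = 0.302), though the groups did not overlap. Chga, the chromogranin A gene, read 7.32 and 7.43 in the tumours and 8.80 and 9.08 in the pools (-1.57, SE 0.13, adjusted p = 0.00409). Chgb (-1.49, adjusted p = 0.0133), the granule phosphatase-like gene Ptprn2 (-1.48, adjusted p = 0.00378), the priming factor gene Cadps2 (-1.34, adjusted p = 0.00565) and the peptide processing gene Cpe (-0.86, adjusted p = 0.0175) also fell. Without pool 2, 3 of the list were called, and Chgb (adjusted p = 0.0617) and Cpe (0.0959) were not.

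Of 9 calcium channel subunit genes of presynaptic terminals, 3 fell and none rose, at a median of -0.28. They were Cacna2d2 (-1.25, adjusted p = 0.0109), Cacna1b (-0.75, adjusted p = 0.0158), which encodes the pore of the N-type channel, and Cacnb1 (-0.50, adjusted p = 0.0362). All 3 calls were lost without pool 1 (adjusted p 0.0658 to 0.121) and without pool 2 (0.0535 to 0.208), where 1 other gene of the list was called as higher. The Cacnb1 call was also lost without tumour 1 (0.0609) or tumour 2 (0.101) and with the replicate number as a block (0.0822).

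Of 21 other genes with tandem C2 domains, the 7 further Syt genes included, 4 fell and 1 rose, at a median of -0.11. Rph3a, which encodes the Rab3 effector rabphilin, read 7.23 and 6.95 in the tumours and 8.92 and 9.48 in the pools (-2.11, SE 0.22, adjusted p = 0.00614). Mctp1 fell by 1.42 (adjusted p = 0.00892), and its call was lost without pool 1 (0.0501). Sytl2, which encodes a synaptotagmin-like Rab27 effector, read 9.04 and 7.99 in the tumours and 6.39 and 6.84 in the pools (1.90, SE 0.36, adjusted p = 0.0286). The groups did not overlap for Sytl2, but its call was lost without pool 1 (0.134) or pool 2 (0.0941) and with the replicate number as a block (0.0701).

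**Figure D4:**
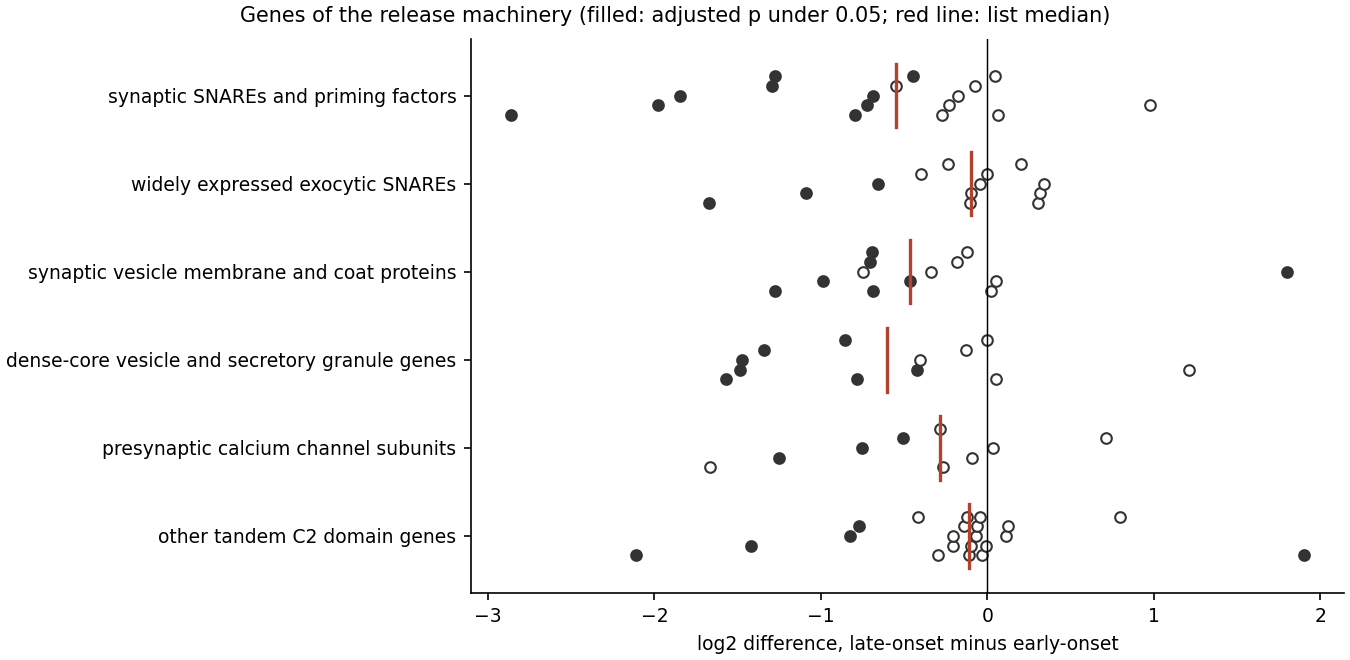
Log2 difference, late-onset minus early-onset, of each measured gene in the 6 lists of the release machinery, a point per gene. Filled points have an adjusted p under 0.05 and red lines mark the list medians, which run from -0.60 to -0.10. Rab3c at -2.86 and Sytl2 at 1.90 are the outermost points.

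Markers of other cell types were read beside these genes, with 8.12% of all genes called as lower and 6.59% as higher. Of 11 neuron markers 3 fell (Rbfox3, Nefl and Gad1) and 1 rose (Tubb3), at a median of -0.42, and their summed linear signal was 8270 and 6446 in the tumours and 6706 and 6244 in the pools. Without pool 1 or without pool 2, Tubb3 was the 1 neuron marker called. Their mean log2 value was 7.49 and 7.64 in the tumours and 7.84 and 7.80 in the pools, lower in both tumours, whereas the sum was not. Rbfox3, the defining nuclear marker of mature neurons, read 6.08 and 5.96 in the tumours and 6.81 and 6.85 in the pools (log2 difference -0.81). Tubb3, the neuron marker with the largest absolute difference, went the other way. It read 11.1 and 10.9 in the tumours and 9.5 and 8.7 in the pools (1.86). Of 10 microglia and macrophage markers 9 fell, with a summed linear signal of 1172 and 1549 in the tumours and 18131 and 16125 in the pools. In each setting with 1 sample left out, 9 or 10 of them were called. Of 8 astrocyte markers 3 fell, with sums of 6249 and 6811 in the tumours and 11097 and 13458 in the pools. Fewer of them were called without pool 1, pool 2 or tumour 1 and more without tumour 2, with Slc1a2 called in each. Of 9 oligodendrocyte progenitor markers 1 fell, the Pdgfra gene described above, with sums of 42018 and 39364 in the tumours and 50768 and 53574 in the pools. Of 7 oligodendrocyte markers 2 fell and 1 rose (0 and 1 without pool 1 or without pool 2, 4 and 1 without tumour 2). Of 6 endothelial markers none was called by limma, with 0 at an unadjusted p under 0.05, and without tumour 2 Kdr was. The part of these cells in the differences of the synaptotagmin and release genes was not tested.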

How the data were processed

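Gene expression was measured on 4 arrays of sorted mouse glioma cells, 2 late-onset and 2 early-onset samples. The deposited values are log2 probe set summaries, which the submitters' processing notes tie to RMA and affy 3.4.2. Parameters and a genome build are not given in the sources used here. Of 34760 probe sets, 21640 had 1 gene symbol in the platform annotation, 1321 had several and 11799 had none, and only the first were used. Each gene was represented by the probe set with the highest mean, which left 19937 genes. Since RMA gives all arrays like distributions, a global shift in RNA would not show. The number of arrays limits the precision, and the labels call the samples biological replicates.

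The late-onset minus early-onset difference was fitted by lmFit and eBayes of limma 3.58.1, run under R 4.3.3, 2-sided, with 2 residual degrees of freedom and Benjamini-Hochberg adjustment over all genes. A call is an adjusted p under 0.05. Alternatives covered the variance model, scaling, filters, probe set choice, array weights, a replicate block, each sample left out and other thresholds. Left with a single sample, a group was assumed to vary like the other.

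The synaptotagmin genes and all lists were chosen with earlier results of these data known. Named are all 10 genes, up to 5 called genes of each list by absolute difference, the 4 genes most like the members with the highest and the lowest difference, 3 tissue markers and the core SNARE genes. Genes given with values beyond these, Rbfox3, Tubb3, Rab3b and Vgf among them, were chosen after their values were seen.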

Additional observations from a re-analysis of the deposited data

How the results depend on the processing

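The Syt4 difference lay between 2.43 and 3.07 over 17 other settings, given as a description, since the gene was selected on this contrast. With all 4 samples 3 of the 10 synaptotagmins were called. With array medians subtracted 1 was called, and leaving out 1 sample gave 1 to 2. No result that was called changed its sign in any setting. Over all genes, late-onset minus early-onset, 2931 were called. The count was 1833 with the replicate number as a block, 4539 at an adjusted p of 0.1, 1077 with a fold of at least 2 required, and 850 to 2577 with 1 sample left out. Of all calls 44.8% were higher, against 53.8% with array medians subtracted and 37.8% after cyclic loess. With medians subtracted the release machinery genes gave 29 lower and 3 higher. Of the 85 release machinery genes 34 were called, 17 of them by at least 2-fold, and 12 to 30 were called with 1 sample left out. With a fold of at least 2 required, 5 synaptic SNARE and priming genes, 2 vesicle genes, 4 dense-core vesicle genes, 1 calcium channel gene, 3 other tandem C2 genes and 0 of the other 7 Syt genes were called. With 1 sample left out the ranges were 3 to 7 for synaptic SNAREs, 1 to 3 for other SNAREs, 1 to 6 for vesicle genes, 3 to 7 for dense-core vesicle genes, 0 to 3 for calcium channels, 2 to 5 for other tandem C2 genes and 0 to 2 for the other 7 Syt genes. Among genes above the median level, 3 other tandem C2 genes and 1 of the other Syt genes were called, fewer genes being tested there. With the replicate block the same 2 counts were 3 and 1. For the remaining changes the cause was not tested. The labels do not say whether same-numbered samples were processed together. Their deviations correlated at r = -0.04 over genes, which cannot settle this. With the block Syt11 was not called (adjusted p = 0.0958) while Syt1 and Syt4 were.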
